A study of Schizosaccharomyces pombe with 40 samples.

Results

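The genes described here are the nuclear genes of fission yeast (Schizosaccharomyces pombe) for the mitochondrial respiratory chain and the ATP synthase. A gene belonged if the array platform gave it a symbol made of atp, cox, qcr, sdh or coq and a number. The rule used names only, but it was set with earlier results of these data known. Of 4816 genes with a symbol of their own on the array, 52 met this rule. They were 17 ATP synthase genes (atp), 5 genes of complex II (sdh), 6 of complex III (qcr), 14 of complex IV (cox) and 10 of coenzyme Q synthesis (coq). By their annotated names, 28 encoded structural subunits, 14 encoded factors that assemble these complexes, and the 10 coq genes formed a class of their own. RefSeq (assembly ASM294v3) lists all 52 under the same symbol, 21 on chromosome I, 16 on chromosome II and 15 on chromosome III.

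The arrays compared 4 strains with altered rep2, a transcriptional activator of the G1/S programme, during treatment with hydroxyurea, which inhibits ribonucleotide reductase and stalls DNA replication. The strains Cdelta21, Cdelta53 and Cdelta94 carried truncations of rep2 and the strain 2C/S-H/Y carried a site mutation. These names come from the sample titles and growth protocol, while the description given with every sample names a different mutant, so the genotypes rest on the titles. Each was grown at 30 °C in YES medium to mid log phase, given 8 mM hydroxyurea, and collected after 0, 10, 30, 60 and 120 min. There were 2 arrays per strain and time, 40 arrays in all. RNA of the strain was labelled with Cy5 on every array, and a pool of RNA from untreated mid log wild-type cells with Cy3. No array held wild-type cells as the sample and no dyes were swapped, so a dye effect of a probe adds to every value against the reference and cancels in a difference between arrays. The labels do not state whether both arrays of a group had a culture each, so the p-values measure a spread between arrays that may be technical only. The labels name no date or batch, so strain and batch cannot be told apart.

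The respiratory chain passes electrons from succinate (complex II) and other donors through coenzyme Q to complex III, and from there by cytochrome c to complex IV, which reduces oxygen. The proton gradient built on the way drives the ATP synthase, a rotary enzyme with a catalytic head, a central stalk that turns and a peripheral stalk that holds the head still. Most subunits are encoded in the nucleus and imported, and dedicated factors insert haem and copper and join the parts. Roles of single proteins are given below as known from budding yeast (Saccharomyces cerevisiae) and other eukaryotes.

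A value is the log2 ratio of strain to wild-type reference, averaged over the gene's 2 probes. The direction of the deposited ratio is not stated and was taken as Cy5 over Cy3. Differences between groups were tested with limma across 5004 array features, a gene or a probe without a symbol of its own, with Benjamini-Hochberg adjustment over all of them. A gene was called changed at an adjusted p under 0.05, and the share of all features called is given beside each count of the 52 genes. For rep2 itself the 0 min value against the reference was 0.37 in 2C/S-H/Y, −5.51 in Cdelta94, −2.97 in Cdelta53 and −0.89 in Cdelta21. The place of its probes against the truncations is not given, so these are probe signals and not transcript levels.

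Some arrays stood apart. In 6 pairs the arrays differed by a robust SD of only 0.052 to 0.0672, against 0.137 to 0.465 in the other 15 pairs of replicates, which makes them near repeats of one another. These pairs were both replicates of Cdelta53 at each of the 5 times, and replicate 1 of 2C/S-H/Y at 30 and at 60 min. Many of the counts below are therefore also given with the arrays of such a pair averaged and counted once. A count given without such a value rests on all arrays, near repeats included. The change of Cdelta94 at its labelled 30 min correlated best with the 120 min change of the other strains, at r = 0.67 across features against 0.36 with their 30 min change. Its labelled 120 min change correlated at 0.33 with their 120 min change, and the time labels of both Cdelta94 groups are doubtful. The 2C/S-H/Y profiles at 0 and 10 min correlated at 0.59, against 0.83 to 0.95 in the other strains.

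Most of these genes differed between strains, as did most features of the array. With all 5 times averaged, the mean log2 ratio differed between the 4 strains for 51 of 52 genes (limma F test), against 97.1% of all features, and for 47 with near repeats counted once, against 94.7%. The median range of the 4 strain means was 0.58, against 0.60 over all features, while the median range over the 5 times was 0.24, as over all features. The range over times was taken from the mean over strains, in which opposite changes of single strains cancel. By these measures the strains ranged more widely than the times for 43 of 52 genes, and the share of all features was not counted. The size of the strain differences was thus close to that of the array as a whole, and the direction by class is given next. The heat map of all 52 genes in the 20 groups shows blocks of colour that follow the strains.

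**Figure D1:**
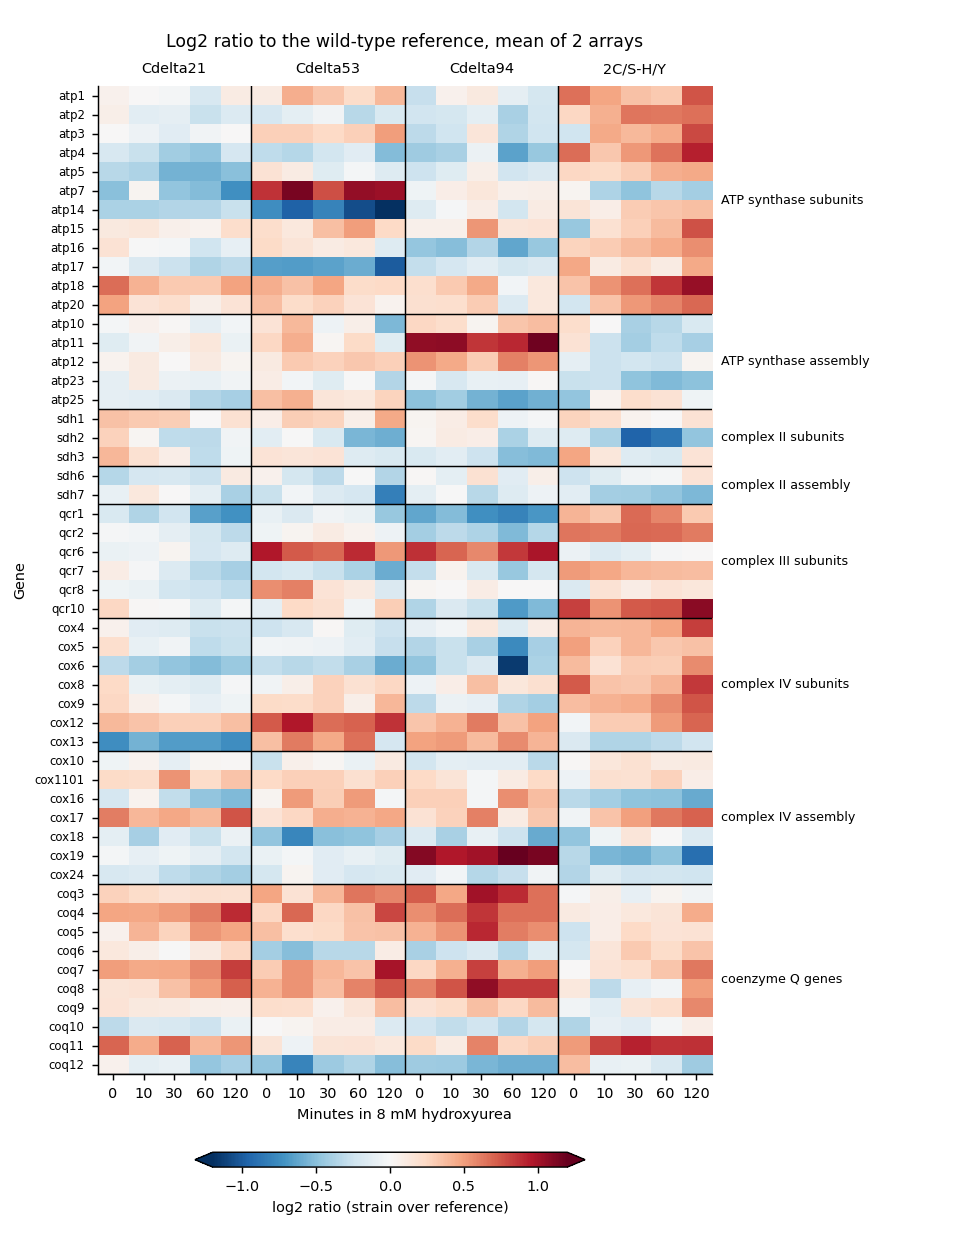
Heat map of the log2 ratio to the wild-type reference, mean of 2 arrays per cell, with the 52 genes grouped by complex down the side and the 20 groups in order of strain and minutes in hydroxyurea along the bottom. Blocks follow the strains: the 28 subunit genes had a median strain mean of 0.37 in 2C/S-H/Y against −0.11 in Cdelta94.

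Most subunit genes were highest in 2C/S-H/Y, and most assembly factor genes were not. Of 28 subunit genes, 20 had their highest strain mean in 2C/S-H/Y, which held for 35.6% of all features. The complex II subunit genes were mixed. Among them, sdh2 was lowest in 2C/S-H/Y, at −0.57 against −0.07 in Cdelta94, its highest strain. For sdh1 the highest strain was Cdelta53, at 0.23 against 0.14 in 2C/S-H/Y. For sdh3 it was 2C/S-H/Y, at 0.09, close to 0.06 in Cdelta21. Of the 14 assembly factor genes, 2 were highest and 8 were lowest in that strain, which was the lowest for 32.9% of all features. The median strain mean of the subunit genes was highest in 2C/S-H/Y, at 0.37, followed by Cdelta53 at 0.10, Cdelta21 at −0.10 and Cdelta94 at −0.11. That of the assembly factor genes was lowest in 2C/S-H/Y, at −0.15, with Cdelta21 at −0.07, Cdelta53 at −0.01 and Cdelta94 at 0.07. The coenzyme Q genes had medians above the reference in every strain, which went from 0.12 in 2C/S-H/Y through 0.25 (Cdelta53) and 0.28 (Cdelta21) to 0.39 (Cdelta94). The split between subunits and assembly factors was made with these values in view and carries no test of its own.

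Tested gene by gene over the 5 times, 23 of the 28 subunit genes were lower in Cdelta21 than in 2C/S-H/Y and 1 was higher, against 33.4% of all features lower. In Cdelta53, 18 were lower and 6 higher, against 40.1% of features lower. In Cdelta94, 20 were lower and 4 higher, against 46.4% of features lower. The median difference from 2C/S-H/Y was −0.48, −0.32 and −0.48 in that order, and with near repeats counted once the numbers lower were 21, 17 and 20. Of the 14 assembly factor genes, 6 were higher and 2 lower than in 2C/S-H/Y in both Cdelta21 (32.1% of features higher) and Cdelta53 (39.9%), and 7 were higher and 4 lower in Cdelta94 (40.7%). For the subunit genes the pattern was also seen at each time taken alone. These are the same arrays that make up the strain means, so the times give no separate support. Of the 28, 2C/S-H/Y was the highest strain for 17 at 0 min, 20 at 10 min, 18 at 30 min, 20 at 60 min and 22 at 120 min. The shares of all features were 27.6%, 34.5%, 33.9%, 39.5% and 32.6%. Of the 14 assembly factor genes, 2C/S-H/Y was the highest strain for 1, 2, 3, 5 and 2 in the same order. At 60 min this was close to the share of features.

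For 7 of the 52 genes, all 10 arrays of 2C/S-H/Y lay above all 30 arrays of the other strains, a pattern of 2.56% of features. These were atp2, the catalytic subunit of the ATP synthase, atp4 of its peripheral stalk, qcr1 and qcr2, the core proteins of complex III, its small subunit qcr7, and cox4 and cox6 of complex IV. They were picked out after their values were seen. The gene qcr2 ran from 0.45 through a median of 0.65 to 0.82 in 2C/S-H/Y. It ran from −0.36 through −0.11 to 0.12 in Cdelta21, from −0.07 through 0.04 to 0.10 in Cdelta53, and from −0.54 through −0.38 to −0.09 in Cdelta94. The 2C/S-H/Y arrays of qcr2 thus shared no value with any other strain, and the difference from Cdelta94 was the widest, at −1.05 (adjusted p = 1.22e-15, limma). The gene atp4 ran from 0.25 through 0.67 to 1.10 in 2C/S-H/Y. Its highest value in another strain was 0.04, in Cdelta94, where the lowest was −0.75 and the median −0.40. The other strains did not differ from each other in atp4 beyond their spread, their means being −0.30 (Cdelta53), −0.31 (Cdelta21) and −0.39 (Cdelta94).

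The truncation strains had outlying genes of their own. The gene cox19, a small protein of the intermembrane space needed to assemble complex IV, differed most clearly between the strains (adjusted p = 2.24e-19, limma F test). It was high on every Cdelta94 array, from 0.77 through a median of 1.13 to 1.28, while the highest value in any other strain was 0.04. It was lowest in 2C/S-H/Y, from −0.96 through −0.55 to −0.27, and its means in Cdelta21 (−0.10) and Cdelta53 (−0.09) did not differ beyond their spread. The gene atp11, a chaperone that delivers the catalytic subunit to the ATP synthase, had the same shape, with a mean of 1.01 ± 0.21 (SD, n = 10 arrays) in Cdelta94 and means of −0.24 to 0.16 in the others. These were the only 2 of the 52 genes with all Cdelta94 arrays above all others, against 3.26% of features. The gene atp16, of the central stalk, was the only one with all Cdelta94 arrays below all others, against 3.44% of features.

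In Cdelta53 the peripheral stalk of the ATP synthase was split. The gene atp7, a stalk subunit (adjusted p = 6.32e-19 between strains, limma F test), ran from 0.76 through 1.02 to 1.14 there, and no array of another strain passed 0.26. The gene atp14, also of the stalk (adjusted p = 2.09e-16), ran from −1.98 through −0.97 to −0.74, below every array of the other strains, whose lowest was −0.55. The gene atp17, of the membrane part, was likewise below all others in Cdelta53, with a mean of −0.71 ± 0.15 (SD, n = 10). Of all features, 0.779% lay wholly above and 2.12% wholly below the other strains in Cdelta53. The difference in atp7 between Cdelta53 and Cdelta21, where its mean was −0.44, came to −1.41 for Cdelta21 minus Cdelta53 (adjusted p = 1.24e-18).

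In Cdelta21 the one gene wholly apart was cox13, a small subunit of complex IV (adjusted p = 4.12e-17 between strains, limma F test), against 0.18% of features wholly below. It ran from −0.84 through −0.67 to −0.54 in Cdelta21. Its means were 0.47 ± 0.15 for Cdelta94, 0.38 ± 0.33 for Cdelta53 and −0.29 ± 0.14 for 2C/S-H/Y (SD, n = 10 arrays). Cdelta94 and Cdelta53 did not differ beyond their spread (adjusted p = 0.161). The wide spread in Cdelta53 held low arrays at 120 min, −0.15 and −0.25, against 0.37 and 0.36 at 0 min. The gene qcr6, the hinge protein of complex III, was high in both Cdelta94 (0.80) and Cdelta53 (0.76) and near the reference in 2C/S-H/Y (−0.07) and Cdelta21 (−0.09). It stood apart from qcr1, qcr2 and qcr10 of the same complex, which were lowest in Cdelta94.

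**Figure D2:**
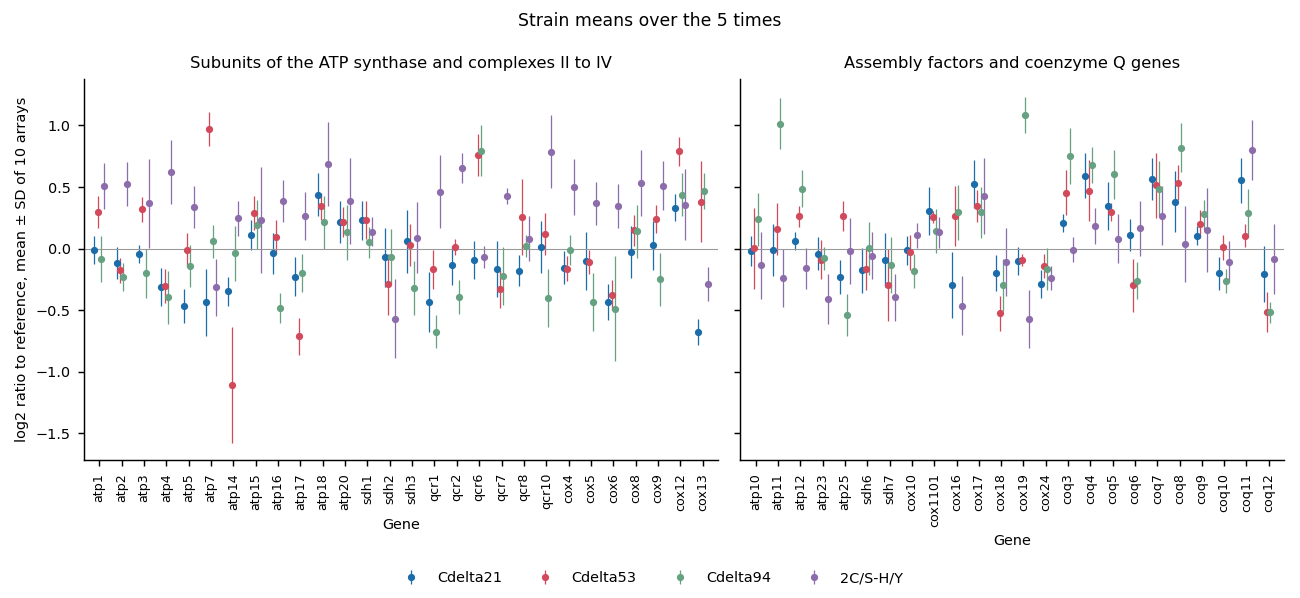
Mean log2 ratio to the wild-type reference in each strain, one colour per strain, with bars giving the SD over the strain's 10 arrays (5 times with 2 arrays each), for subunit genes (left) and for assembly factor and coenzyme Q genes (right). The genes qcr2 and atp4 are high in 2C/S-H/Y, cox19 and atp11 in Cdelta94 (1.09 and 1.01), and atp7 in Cdelta53 (0.97).

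The differences were present before hydroxyurea. At 0 min the reference pool stands as 1 control sample, so the test against it leaves out the control's own spread. In 2C/S-H/Y, 20 of the 52 genes were higher and 12 lower than the reference, against 48.6% of features called either way, 24.3% in each direction. Of its 28 subunit genes, 18 were higher and 3 lower, and of its 14 assembly factor genes, 0 were higher and 6 lower. The count of 18 was 11 with either 2C/S-H/Y array at 0 min left out. In Cdelta94, 13 were higher and 19 lower, against 67.4% (31.6% higher and 35.8% lower), and the subunit genes went the other way, with 3 higher and 14 lower, while 5 assembly factor genes were higher and 2 lower. Cdelta21 had 12 higher and 8 lower against 53.9%, with 6 subunit genes higher and 5 lower. Cdelta53 had 17 higher and 10 lower against 57.2%, with 10 subunit genes higher and 5 lower. Counting near repeats once left 18 and 10 in 2C/S-H/Y (41.1% of features), 11 and 17 in Cdelta94 (62.1%), 11 and 6 in Cdelta21 (46.9%), and 7 and 5 in Cdelta53 (28.5%).

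The highest of these at 0 min in 2C/S-H/Y were qcr10 of complex III at 0.82 (1.77-fold, adjusted p = 1.59e-05, limma), cox8 of complex IV at 0.74 and atp4 at 0.67. The lowest were the assembly genes atp25, at −0.47, and cox18, at −0.47, and the central stalk gene atp15, at −0.45. In Cdelta94, cox19 stood at 1.16 and 1.04 on its arrays (2.14-fold, adjusted p = 5.78e-11), atp11 at 0.96 and 1.17, and qcr6 averaged 0.88. There qcr1 was lowest, at −0.62, then atp25, at −0.49, and cox6, at −0.47. In Cdelta53, qcr6 (0.96), atp7 (0.87) and cox12 (0.73), a small complex IV subunit, were highest, and atp14 (−0.74), atp17 (−0.66) and coq12 (−0.48) lowest. In Cdelta21, coq11 (0.70), the ATP synthase subunit gene atp18 (0.67) and the copper chaperone gene cox17 (0.62) were highest, and cox13 (−0.74), atp7 (−0.50) and atp14 (−0.38) lowest. Thus atp25 was among the lowest in both Cdelta94 and 2C/S-H/Y, and atp14 in both Cdelta21 and Cdelta53.

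In the mean over strains, changes in hydroxyurea built up over time and were smaller than the differences between strains. With the 4 strains averaged and set against their own 0 min arrays, 1 of 52 genes had risen and 1 had fallen by 10 min, against 9.49% of features called either way. At 30 min, 7 had risen and 4 had fallen, against 26.7%. At 60 min, 4 had risen and 7 had fallen, against 33.1%. At 120 min, 12 had risen and 12 had fallen, against 48.2%, with 23.9% of features up and 24.4% down. These shares were near or below the background, and the change went one way only within single classes. With near repeats counted once, 0, 6, 6 and 15 of 52 were called at the 4 times, against 1.46%, 14.4%, 20.3% and 36.1% of features. At 10 min that count of 0 (limma) stood beside 3 genes at an unadjusted p under 0.05. Without Cdelta94, 3 had risen and 3 had fallen at 30 min, 4 and 8 at 60 min, and 13 and 16 at 120 min. The splits at 10 and 60 min depended on scaling: quantile scaling gave 4 up and 1 down at 10 min, and both quantile scaling and setting array medians to 0 gave 7 up and 7 down at 60 min.

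**Figure D3:**
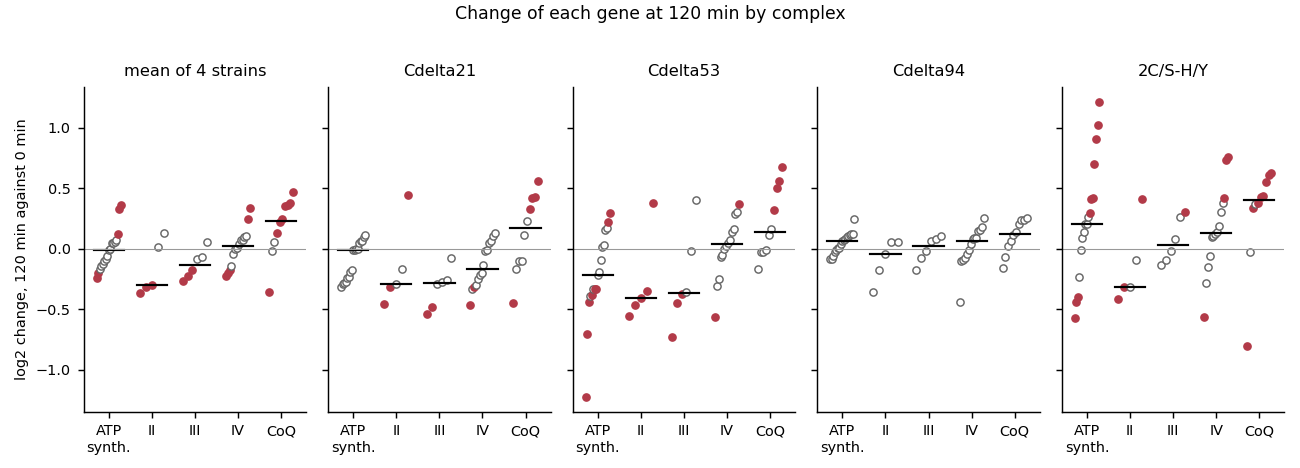
Change in log2 ratio from 0 to 120 min in hydroxyurea, as the mean over the 4 strains (left panel) and in each strain, one point per gene in columns by complex, with filled points for an adjusted p under 0.05 and a line at each column's median. In the mean over strains the coenzyme Q column lies highest (median 0.23, 7 of 10 up) and the complex II column lowest (median −0.30), and in Cdelta94 no point is filled.

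Genes of complex II that changed in the mean over strains had fallen. This complex is succinate dehydrogenase, which links the citric acid cycle to the respiratory chain. Of its 5 genes, 2 had fallen at 30 min, 3 at 60 min and 3 at 120 min, and none had risen at these times, against 13.6%, 20.2% and 24.4% of features fallen. Their median change was −0.08, −0.17 and −0.30, against 0.00 over all features at 120 min. The fall was in the iron-sulfur subunit sdh2 and the membrane anchor sdh3, joined at 60 min by the flavoprotein subunit sdh1 (−0.17) and at 120 min by the assembly factor sdh7 (−0.30). At 120 min the changes of sdh1 (0.02) and of the assembly factor sdh6 (0.13, adjusted p = 0.158, limma) did not pass the test, and sdh6 was higher in Cdelta21 taken alone. The count at 60 min was 3 without Cdelta94 and 2 with near repeats counted once.

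In the mean over strains the fall of sdh2 was largest at 60 min, though it was largest at 30 min in 2C/S-H/Y (−0.80) and at 120 min in Cdelta53 (−0.46). Its arrays went from 0.28 and 0.27 at 0 min to −0.35 and −0.29 at 60 min in Cdelta21, and from −0.16 and −0.09 to −0.56 and −0.54 in Cdelta53. They went from 0.07 and −0.02 to −0.35 and −0.42 in Cdelta94, and from −0.14 and −0.17 to −0.88 and −0.85 in 2C/S-H/Y. In all 4 strains both arrays at 60 min lay below both arrays at 0 min. The mean change was −0.53 (SE 0.05, 1.45-fold lower, adjusted p = 1.09e-08, limma), and −0.32 at 120 min (adjusted p = 1.66e-05). At 30 min the strains lay apart: sdh2 stood at −0.85 and −1.07 in 2C/S-H/Y and had fallen to −0.23 and −0.38 in Cdelta21. In Cdelta53 at 30 min it stood at −0.16 and −0.19, close to its 0 min arrays, and under the doubtful 30 min label of Cdelta94, at 0.16 and 0.00. By 120 min the Cdelta53 arrays remained low, at −0.57 and −0.61, while Cdelta21 had come back to 0.03 and −0.11.

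The gene sdh3 followed a similar course. It went from 0.49 and 0.32 at 0 min to −0.30 and −0.32 at 60 min in Cdelta21, and from 0.16 and 0.17 to −0.15 and −0.15 in Cdelta53. It went from −0.02 and −0.34 to −0.49 and −0.52 in Cdelta94, and from 0.48 and 0.47 to −0.03 and −0.33 in 2C/S-H/Y. Again no strain's 60 min arrays overlapped its 0 min arrays. The mean change was −0.50 (SE 0.07, adjusted p = 1.02e-06, limma) at 60 min and −0.37 (adjusted p = 3.36e-05) at 120 min. With near repeats counted once, the 60 min falls had adjusted p = 2.15e-05 for sdh2 and 9.8e-05 for sdh3. Both probes of each gene fell at 120 min, by 0.37 and 0.27 for sdh2 and by 0.38 and 0.36 for sdh3.

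Most genes of coenzyme Q synthesis were higher at 120 min than at 0 min. Of the 10, 7 had risen and 1 had fallen, against 23.9% of features risen and 24.4% fallen, with a median change of 0.23 against 0.00 over all features. The count of risen genes was 5 with near repeats counted once, against 18.2% of features, and 7 without Cdelta94. The genes that rose were coq7, the hydroxylase of the last ring hydroxylation (0.47, SE 0.06, adjusted p = 8.77e-08, limma), coq8, a kinase-like protein (0.38, adjusted p = 2.79e-05), coq4, which holds the biosynthetic complex together (0.36, adjusted p = 1.36e-06), and coq6, a ring monooxygenase (0.35, adjusted p = 8.41e-06). Smaller rises were seen for the ring methyltransferase coq5 (0.25), the lipid-binding partner of coq7, coq9 (0.22), and the coenzyme Q chaperone coq10 (0.13). The coq9 value is uncertain, since its probes changed by 0.24 and 0.04 and correlated at −0.68. Its second probe had values on 39 of the 40 arrays. The methyltransferase coq3 (−0.02) and coq11 (0.06) did not pass the test, and coq12 fell (−0.36, adjusted p = 1.56e-06).

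For coq7 the 120 min arrays were above the 0 min arrays in every strain. Its arrays went from 0.54 and 0.47 at 0 min to 0.87 and 0.80 at 120 min in Cdelta21, and from 0.29 and 0.32 to 0.99 and 0.99 in Cdelta53. They went from 0.32 and 0.17 to 0.57 and 0.44 in Cdelta94, and from 0.03 and −0.01 to 0.67 and 0.60 in 2C/S-H/Y. Within single strains the change passed the test in all but Cdelta94. At 60 min the mean rise of coq7 was 0.15 (adjusted p = 0.0411), which was lost in 18 of 54 other settings. On the Cdelta94 arrays with the doubtful 30 min label, coq7 was already at 1.01 and 0.63.

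For coq6 the arrays at 0 and 120 min did not overlap in any strain either. They went from −0.42 and −0.40 to 0.08 and 0.10 in Cdelta53 and from −0.24 and −0.19 to 0.44 and 0.25 in 2C/S-H/Y. The step in Cdelta21 was from 0.14 and 0.12 to 0.26 and 0.24, and in Cdelta94 from −0.40 and −0.37 to −0.01 and −0.29. For coq4 the arrays were apart in 3 strains, and in Cdelta94 they overlapped, with 0.60 and 0.51 at 0 min and 0.85 and 0.48 at 120 min. The coq8 arrays overlapped in Cdelta94 too, with 0.69 and 0.51 against 0.64 and 1.03. The change of coq8 rested on 1 of its probes: the second rose by 0.86, and the first stood at −0.11 (adjusted p = 0.284). Both probes rose for coq7 (0.49 and 0.45), coq6 (0.27 and 0.43) and coq4 (0.21 and 0.51).

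Within single strains the fall of coq12 passed the test at 120 min in Cdelta21 and 2C/S-H/Y. In 2C/S-H/Y it went stepwise from 0.33 and 0.41 at 0 min to −0.08 and −0.10 at 10 min and to −0.50 and −0.37 at 120 min, a change of −0.80 (SE 0.10, adjusted p = 3.69e-07, limma). In Cdelta21 it went from 0.19 and −0.10 to −0.49 and −0.30. In Cdelta53 it started low, at −0.52 and −0.44, and its 120 min arrays, at −0.52 and −0.50, overlapped these. It was also the one gene whose fall passed the test at 10 min in the mean over strains (−0.24, adjusted p = 0.00356), which it did not with near repeats counted once (adjusted p = 0.0715).

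**Figure D4:**
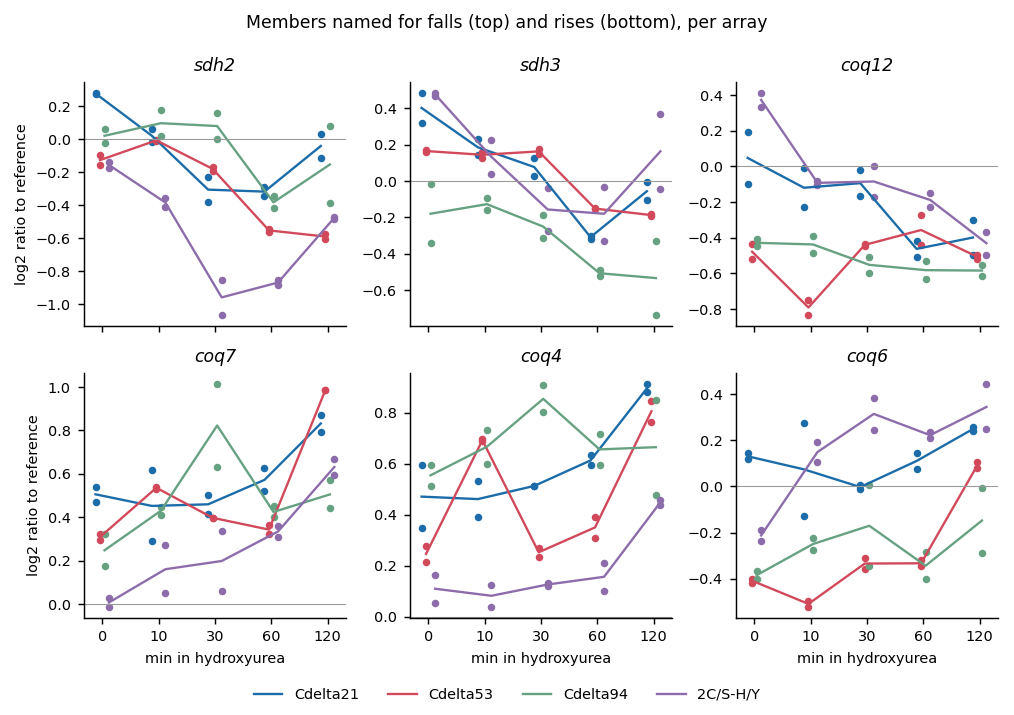
Log2 ratio to the wild-type reference against time in hydroxyurea (min), one point per array and one colour per strain, with lines through the strain means, for sdh2, sdh3 and coq12 (upper panels) and coq7, coq4 and coq6 (lower panels). The genes of the upper panels end lower and those of the lower panels end higher at 120 min than at 0 min in the mean over strains (−0.32, −0.37, −0.36, 0.47, 0.36 and 0.35).

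The genes of complex III, complex IV and the ATP synthase that passed at 120 min are set here against 23.9% of features risen and 24.4% fallen. Of 6 complex III genes, 3 had fallen and none had risen: the core protein qcr1 (−0.27, adjusted p = 0.0116, limma) and the small subunits qcr7 (−0.23) and qcr8 (−0.18). Of these, 1 passed the test with near repeats counted once. Of 14 complex IV genes, 2 had risen at 120 min, the copper chaperone cox17 (0.34) and the small subunit cox12 (0.25). The 3 that had fallen were the subunits cox5 (−0.23) and cox13 (−0.18) and the assembly factor cox19 (−0.20). The fall of cox5 did not pass the test with near repeats counted once (adjusted p = 0.0763). At 60 min cox5 (−0.30), cox6 (−0.27) and qcr7 (−0.22) had fallen. The calls of cox5 and qcr7 at 60 min were lost on the second probe and without Cdelta21, that of qcr7 also with near repeats counted once. The cox6 call was lost on the second probe and with near repeats counted once. Its value also depended on replicate 1 of Cdelta94 at 60 min, at −1.58 against −0.72 in replicate 2. Without Cdelta94 the change of cox6 was −0.13 (adjusted p = 0.338, limma). Of 17 ATP synthase genes, 3 had risen at 120 min, the central stalk subunits atp15 (0.36) and atp3 (0.33) and the head subunit atp1 (0.12), and 2 assembly factors had fallen, atp10 (−0.24) and atp11 (−0.20). The probes of atp1 were of opposite sign, −0.11 and 0.36. The shares of complex IV and ATP synthase genes called in either direction were below those of all features.

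The ATP synthase averages hid a difference between strains. The time courses differed between the 4 strains for 31 of 52 genes (limma F test of the interaction), against 52.6% of features, and for 6 with near repeats counted once, against 17%. The smallest p-values were those of atp3, the gamma subunit that turns inside the catalytic head (3.51e-06), its stalk partner atp15 (6.19e-05), the peripheral stalk gene atp14 (6.37e-05) and the membrane subunit atp20 (7.87e-05). These were 0.00108, 0.00386, 0.035 and 0.009 with near repeats counted once. Under quantile scaling atp14 had an adjusted p of 0.0515.

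In 2C/S-H/Y the central stalk genes atp3 and atp15 rose, atp3 most of the way by 10 min and atp15 in stages, while atp16 of the same stalk changed by 0.03 at 10 min and 0.30 at 120 min (adjusted p = 0.0456, limma). The arrays of atp3 stood at −0.25 and −0.22 at 0 min, 0.53 and 0.37 at 10 min, 0.50 and 0.29 at 30 min, 0.50 and 0.39 at 60 min and 0.86 and 0.72 at 120 min. Every array after 0 min was above both arrays at 0 min, and the change at 120 min was 1.03 (SE 0.09, 2.04-fold, adjusted p = 4.47e-10, limma). The arrays of atp15 stood at −0.42 and −0.48 at 0 min, 0.20 and 0.16 at 10 min, 0.31 and 0.26 at 30 min, 0.28 and 0.48 at 60 min and 0.97 and 0.56 at 120 min. The change of atp15 was 1.21 (SE 0.12, 2.32-fold, adjusted p = 3.06e-09). The gene atp20 went from −0.25 and −0.19 to 0.37 and 0.32 at 10 min and to 0.82 and 0.55 at 120 min, a change of 0.90 (adjusted p = 1.78e-06). In the other strains the 120 min change was between −0.01 and 0.22 for atp3, between 0.03 and 0.11 for atp15 and between −0.33 and −0.06 for atp20.

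A large part of these rises lay between the 0 and 10 min arrays of 2C/S-H/Y, the pair of profiles that were the least alike among the strains. From 0 to 10 min atp3 rose by 0.69 and atp15 by 0.63, and from 10 to 120 min they rose by 0.34 (adjusted p = 0.00641) and 0.58 (adjusted p = 0.000495). The part of the 0 min arrays in this was not tested. Counted from 10 min, 16 of the 52 genes rose and 2 fell by 120 min in 2C/S-H/Y, against 26.7% of features called either way and 13.2% risen. Counting near repeats once left 8 risen and 0 fallen, against 19%. Counted from 0 min, 19 rose and 7 fell, against 44.3%, and 15 rose and 4 fell with near repeats counted once, against 36.8%. The median change of the 52 genes from 0 to 120 min was 0.20 in this strain, against −0.02 over all features.

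In Cdelta53 the largest change was a fall of atp14 between 60 and 120 min. Its arrays stood at −0.74 and −0.74 at 0 min, −0.98 and −0.96 at 10 min, −0.81 and −0.79 at 30 min, −1.09 and −1.03 at 60 min and −1.98 and −1.96 at 120 min. The change at 120 min was −1.23 (SE 0.15, 2.34-fold lower, adjusted p = 1.40e-07, limma), and adjusted p = 0.000955 with near repeats counted once. Both probes fell, by 1.61 and 0.84. In the other strains the 120 min change of atp14 was 0.11 to 0.25 and did not pass the test. The complex III subunit gene qcr8 fell earlier in Cdelta53, from 0.55 and 0.57 at 0 min to 0.16 and 0.18 at 30 min and −0.14 and −0.20 at 120 min, a change of −0.73 (adjusted p = 9.75e-06).

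**Figure D5:**
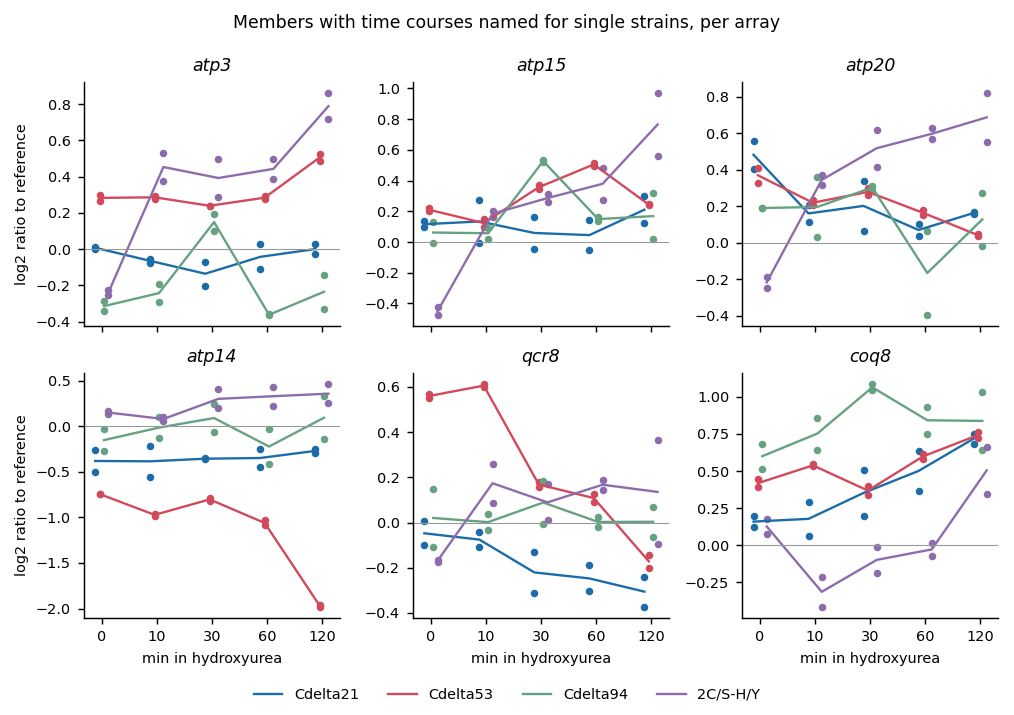
Log2 ratio to the wild-type reference against time in hydroxyurea (min), one point per array and one colour per strain, with lines through the strain means, for atp3, atp15, atp20, atp14, qcr8 and coq8. In 2C/S-H/Y, atp3, atp15 and atp20 climb from below 0 to 0.55 or more, and in Cdelta53 atp14 drops to −1.98 and −1.96 at 120 min.

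With all arrays used, the subunit genes that passed the test within single strains at 120 min had mostly fallen in Cdelta21 and Cdelta53. In 2C/S-H/Y they had mostly risen. In Cdelta21, 5 of the 52 genes had risen and 7 had fallen, against 24.1% of features called either way. Of the 28 subunit genes, 0 had risen and 6 had fallen there (median −0.25), against 12.6% of features fallen. In Cdelta53, 8 had risen and 14 had fallen, against 41.1% of features called either way. Of the subunit genes, 3 had risen and 10 had fallen there (median −0.23), against 21.3% of features fallen. In 2C/S-H/Y, 9 subunit genes had risen and 2 had fallen (median 0.20), against 21.5% of features risen and 22.8% fallen. With near repeats counted once these were 7 and 1, against 18.3% and 18.5%. With all arrays used, the coenzyme Q genes that passed had mostly risen in these 3 strains. The shares of features are those above, for either direction in Cdelta21 and Cdelta53 and for each direction in 2C/S-H/Y. There were 4 up and 1 down in Cdelta21, 4 up and none down in Cdelta53, and 7 up and 1 down in 2C/S-H/Y. In Cdelta21 and Cdelta53 the counts of risen coenzyme Q genes and of fallen subunit genes rest on all arrays. Each is larger than the number of all 52 genes left in that direction with near repeats counted once, given below. In Cdelta94, with its doubtful 120 min label, 0 of 52 passed the test (limma), against 0.759% of features, and 4 of 52 had an unadjusted p under 0.05. With near repeats counted once, Cdelta21 had 3 up and 4 down, against 16.1% of features, and Cdelta53 had 2 up and 2 down, against 14.8%.

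At the earlier times most calls came from 2C/S-H/Y. There 9 genes had risen and 5 had fallen at 10 min, against 23.1% of features, 10 and 7 at 30 min, against 25.9%, and 14 and 8 at 60 min, against 29.5%. With near repeats counted once these were 5 and 1 (14.8%), 9 and 6 (17.7%) and 6 and 3 (15.1%). In Cdelta21, 1 gene was called at 10 min (2.18% of features) and 1 at 30 min (1.46%), and at 60 min 1 had risen and 10 had fallen, against 17.7%, among them 3 of complex II and 3 of the ATP synthase. Counting near repeats once left 1 risen and 3 fallen in Cdelta21 at 60 min, against 9.02%. Under the doubtful 30 min label of Cdelta94, 9 genes had risen and 0 had fallen, against 24.2%, of which 4 were ATP synthase and 4 coenzyme Q genes, and 6 and 0 with near repeats counted once, against 15.9%. Cdelta94 had 0 called at 10 min (limma, 0.0799% of features, with 3 genes at an unadjusted p under 0.05) and 2 fallen at 60 min (5.34%). Cdelta53 had 1 called at 10 min (2.5%), 0 at 30 min (limma, 3.84%, with 6 at an unadjusted p under 0.05) and 2 fallen at 60 min (8.59%).

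The largest rises in Cdelta21 at 120 min were those of coq8 (0.56, adjusted p = 0.00252, limma) and the complex II assembly factor sdh6 (0.45, adjusted p = 0.0284), and the largest falls those of qcr1 (−0.54, adjusted p = 0.0229) and qcr7 (−0.48, adjusted p = 0.0115). The coq8 rise rested on its second probe (1.11, against 0.01 on the first, adjusted p = 0.988). The sdh6 call was lost on the second probe, with near repeats counted once, and without Cdelta21 0 min replicate 2 or either 120 min replicate. The qcr1 call was lost on the second probe (−0.33, against −0.75 on the first). It was also lost without either Cdelta21 0 min replicate or 120 min replicate 1. The qcr7 call was lost on the second probe, and without Cdelta21 0 min replicate 1 or 120 min replicate 2. In Cdelta53 coq7 (0.68) and coq4 (0.56) rose most. The coq4 call there was lost on the first probe (0.21, adjusted p = 0.239, limma), against 0.91 on the second. In 2C/S-H/Y coq12 fell most, and then atp11 (−0.58, adjusted p = 0.00448). Over the whole time course (limma F test), 9 genes changed in Cdelta21, against 24.5% of features, led by sdh2 (adjusted p = 0.00047), atp7 (0.000476) and coq12 (0.00147). In Cdelta53, 17 changed, against 49.8%, led by atp14, qcr8 and cox13. In Cdelta94, 13 changed, against 33.7%, led by atp3, cox6 and sdh2, all of which lost the call on the second probe and in a fit of that strain alone, cox6 also without Cdelta94 60 min replicate 1 and sdh2 under quantile scaling. In 2C/S-H/Y, 28 changed, against 43%, led by atp3, atp15 and sdh2. With near repeats counted once, the number of changed genes was 20 in 2C/S-H/Y (31.1% of features), 6 in Cdelta21 (12.9%), 5 in Cdelta94 (17%) and 3 in Cdelta53 (9.8%).

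As a description over the 20 groups, which share strains and a reference, the median correlation between pairs of genes was 0.33 for the subunits, 0.52 for the ATP synthase subunits, 0.46 for the complex IV subunits, 0.32 for complex III and 0.00 for coenzyme Q. It was 0.52 for the 5 ATP synthase assembly factors too, −0.03 for the complex IV assembly factors, 0.20 for all 17 ATP synthase genes and 0.00 for all 14 complex IV genes. It was 0.06 over all pairs of the 52 and 0.00 over all named genes. The closest pairs were qcr1 with qcr2 (0.97), cox19 with atp11 (0.95), cox9 with qcr10 (0.95) and cox6 with atp4 (0.94). The pair of cox19 with atp16 was the reverse (−0.91), the first high and the second low in Cdelta94.

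The 2 probes of a gene gave a check within each array. Their median correlation over the arrays was 0.70 for the 52 genes, against 0.69 for all 4816 genes. It was under 0.5 for 15 of the 52, and below 0 for cox24 (−0.71) and coq9 (−0.68), against 5.19% of all genes below 0. At 120 min the probes had the same sign of change for 40 of 52 genes. By the first probe alone 20 of 28 subunit genes had their highest strain mean in 2C/S-H/Y, and by the second 19. The gene cox1101 has a near-identical copy, cox1102, and its probes may read both.

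Other genes of mitochondrial metabolism gave the setting at 120 min, as the mean over strains. The counts below stand against 23.9% of features risen and 24.4% fallen. Of 20 further respiratory chain genes, 4 had risen and 7 had fallen (median −0.08), among them cytochrome c, cyc1 (−0.79), and cytochrome c1 of complex III, cyt1 (−0.44), while the glycerol-3-phosphate dehydrogenase gut2 rose (0.54). Of 16 genes of the citric acid cycle and pyruvate dehydrogenase, 6 had risen and 3 had fallen (median 0.01), with idp1 (0.55), idh2 (0.38) and lsc2 (0.30) the furthest from 0. Of 22 mitochondrial import genes, 4 had risen and 7 had fallen (median −0.08), with tim44 (−0.52), tim22 (−0.48) and tim17 (−0.46) the lowest. Of 56 mitochondrial ribosomal protein genes, 7 had risen and 17 had fallen (median −0.02). Of the 4 genes of the CCAAT-binding complex, php4, the subunit that represses respiratory and other iron-using genes when iron is scarce, rose (0.50, adjusted p = 6.40e-05, limma), and php5 (−0.39) and php2 (−0.28) fell. The php2 value came from 2C/S-H/Y, where it changed by −1.12, against −0.07 to 0.12 in the other strains. The mean change of php4 was 0.22 at 10 min, 0.35 at 30 min and 0.39 at 60 min. Core stress genes and iron uptake genes, at medians of 0.97 over 8 genes and 0.93 over 7 genes, rose over the same interval, and their part in the changes above was not tested.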

How the data were processed

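Per the labels, 40 two-colour arrays of total RNA were hybridised, 2 for each of 20 groups. The values are the authors' deposited log2 ratios per probe. Base 2 was inferred: raised as a power of 2, 100% of values below 0 gave whole multiples of 0.001 (tolerance 0.02 of that unit), while bases 10 and e gave them for 3.48% and 5.51%. How arrays were scanned, background-corrected and normalized is not given in the sources used here. Signal intensities were not used. Array medians ran from −0.12 to 0.06, and 1.17% of values were missing. The number of arrays limits the precision.

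Genes were named from the platform annotation (9632 of 9858 probes with 1 symbol, 44 with several, 182 with none), and the 2 probes of a gene were averaged. Features with values on at least 80% of arrays and in every group were kept (5004 of 5042). limma 3.58.1 in R 4.3.3 fitted the 20 group means (20 residual degrees of freedom, eBayes), with contrasts for time against 0 min, strain means and 0 min against the reference, and Benjamini-Hochberg adjustment over the 5004 features. The script was tested on simulated data.

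The genes, the other gene lists and the split into subunits and assembly factors were chosen with earlier results of these data known. Genes were named by a rule: up to 5 rises and 5 falls per time with the same sign in 4 strains, the 3 or 4 smallest p-values of each F test, up to 3 highest and 3 lowest per strain at 0 min and up to 2 rises and 2 falls per strain at 120 min, complexes being named together. Of the list of further respiratory genes, abc1 was left out, since the platform uses that symbol for a transporter. No promoter or protein sequence was used, and the planned motif search was not run. A further 7 nuclear and 6 mitochondrial RefSeq genes match the symbol pattern and were not analysed here. Alternatives were scaling, single probes, the replicate block, near repeats counted once, strains or arrays left out, and fits of the compared groups only. Averaging near repeats, the block within each strain and 10 min as the start were chosen after seeing the data.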

Additional observations from a re-analysis of the deposited data

Results flagged for a closer look

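Time courses that differed by strain, by the interaction term (limma F test), were found for 31 of the 52 genes, against 52.6% of all features. With near repeats counted once fewer genes passed, and their share was below that of all features, as given above. By the same F test the 4 named genes with the smallest adjusted p were atp3 (3.51e-06), atp15 (6.19e-05), atp14 (6.37e-05) and atp20 (7.87e-05). In atp3, atp15 and atp20 the arrays of 2C/S-H/Y rose while those of the other strains changed by −0.33 to 0.22 at 120 min, and in atp14 those of Cdelta53 fell.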

How the results depend on the processing

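Of 74 results on named genes, 52 kept their call under every alternative run, 21 lost it under at least 1 and 1 reversed: coq8 at 120 min, at −0.11 with the first probe alone; the cause was not tested. Counting near repeats once, with the 2C/S-H/Y array kept at 30 or at 60 min, gave 0 and 0 genes for the mean over strains at 10 min (2 otherwise), 6 and 5 at 30 min (11), 6 and 6 at 60 min (11) and 15 and 14 at 120 min (24), 7 and 7 for Cdelta21 at 120 min (12), 4 and 4 for Cdelta53 (22), 6 and 9 for the interaction (31), 12 and 12 for Cdelta53 against the reference (27), and for the time courses 3 and 3 in Cdelta53 (17), 5 and 6 in Cdelta94 (13) and, with 60 min, 5 in Cdelta21 (9). Quantile scaling gave 5 at 10 min and 3 for the Cdelta94 course. The first probe alone gave 14 for Cdelta53 at 120 min and 8 for the Cdelta94 course, and the second 14, 6, 7 for Cdelta21 at 120 min and 19 for the interaction. Leaving out a strain gave 4 at 10 min without Cdelta53, and at 30 min 17 without Cdelta21, 6 without Cdelta94 and 4 without 2C/S-H/Y. Fits of the compared groups only gave 5 at 10 min, for the courses 15 in 2C/S-H/Y (28), 0 in Cdelta94, 51 in Cdelta53 and 4 in Cdelta21, 40 for Cdelta53 at 120 min and 46 for it against the reference. Those fits use fewer arrays, and in Cdelta53 only near repeats. The replicate number as a block gave 2, 11, 12 and 23 genes at the 4 times. Differences between replicates 1 and 2 correlated at medians of 0.06 to 0.26 within strains and 0.03 between them. Every pair was positive in Cdelta53 (from 0.03) and 2C/S-H/Y (from 0.06 to 0.65), but in no strain were all pairs over 0.1 (lowest −0.24 in Cdelta21 and −0.14 in Cdelta94), so the numbers were not taken as pairs. A block within each strain gave 7 at 10 min, 17 for the course of Cdelta21 and 28 for Cdelta53. Without single arrays the counts ran from 2 to 4 at 10 min (4 without Cdelta21 10 min replicate 1 or Cdelta94 10 min replicate 2), 5 to 12 for the Cdelta21 course (5 without its 120 min replicate 1), 11 to 21 for Cdelta53 (11 without 10 min replicate 1 or 120 min replicate 2), 8 to 18 for Cdelta94 (8 without 30 min replicate 1), 3 to 14 for Cdelta21 at 120 min (3 without 0 min replicate 1, 7 without 0 min replicate 2, 5 and 6 without the 120 min replicates), 11 to 24 for Cdelta53 at 120 min (11 or 12 without any of its 4 arrays), 0 to 2 for Cdelta94 (2 without 120 min replicate 1) and 17 to 29 for 2C/S-H/Y (17 without 120 min replicate 1). Against the reference they ran from 12 to 21 for Cdelta21, 17 to 30 for Cdelta53 and 19 to 34 for 2C/S-H/Y, the lowest without a 0 min array of the strain. The subunit genes higher in 2C/S-H/Y at 0 min were 11 to 18. The counts of subunit genes lower than in 2C/S-H/Y, coenzyme Q genes risen and complex II genes fallen kept within 1.5 times of their values under every alternative run.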
